A study of Mus musculus with 14 samples.

Results

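The 9 genes described here, a brake on the G1 phase of the cell cycle, were followed through mouse primordial germ cells, the embryonic cells that give rise to sperm and eggs. They comprised 6 inhibitors of the cyclin-dependent kinases (Cdkn1a, Cdkn1b, Cdkn1c, Cdkn2b, Cdkn2c and Cdkn2d) and 3 retinoblastoma genes (Rb1, Rbl1 and Rbl2). Their probe sets were those whose platform annotation gave exactly 1 of these symbols, which left 16 probe sets of 34945 that carry a single symbol, and 9 of 18193 genes. The genes were read in the window in which XY germ cells stop dividing and XX germ cells enter meiosis.

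RNA was hybridised to Affymetrix expression arrays, 1 array per sample, with 2 arrays labelled as biological replicates in each of 7 groups. The groups were germ cells of embryonic day (E) 9.5, E10.5 and E11.5, not split by sex, and males and females at E12.5 and E13.5. From E10.5 on, the cells carried the stella-EGFP transgene, in which Dppa3 (stella) regulatory sequence drives green fluorescent protein in germ cells. They came from BDF1 mothers and transgenic fathers of a mixed B6/CBA background, and were sorted on green fluorescence out of trypsin-treated genital ridges. The E9.5 cells were C57BL/6 and came from an earlier experiment with another RNA kit and 22 rather than 12 cycles of first PCR. A sort for them is not given in the sources used here, and day and experiment cannot be told apart at E9.5. Each sample was amplified from 5 ng of total RNA, stated as the amount in 500 cells. How many embryos went into a sample is not given in the sources used here, so p-values measure only the spread between these samples.

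The CDK inhibitors act on the step that commits a cell to S phase. The Cip/Kip proteins (p21, p27 and p57, encoded by Cdkn1a, Cdkn1b and Cdkn1c) bind cyclin-kinase complexes, mainly those of CDK2, and the INK4 proteins (p15, p18 and p19, encoded by Cdkn2b, Cdkn2c and Cdkn2d) bind CDK4 and CDK6 and keep D-type cyclins off them. With the kinases blocked, the retinoblastoma proteins (pRB, p107 and p130, encoded by Rb1, Rbl1 and Rbl2) stay hypophosphorylated and hold E2F transcription factors inactive. In the mouse fetal testis germ cells arrest in G0/G1, whereas in the fetal ovary they enter meiotic prophase.

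Values are the deposited log2 signals, on which a difference of 1 is a 2-fold change, and errors of means are SD over n = 2 arrays. Differences were tested with limma across all 18193 genes, in a fit over the 12 arrays of E10.5 and later, and passed at a Benjamini-Hochberg adjusted p under 0.05. The array medians lay between 4.66 and 4.80, replicate arrays correlated at 0.950 to 0.971, and signals under the table's median of 4.72 are called dim here. Dppa3, the gene behind the sorting reporter, read 13.09 to 13.76 on all 14 arrays. The Y-linked Eif2s3y read 11.53 and 11.32 in E13.5 males, against 5.93 and 2.58 in E13.5 females, so the first female array of that day stood above its replicate but below every male array. The Gapdh distance, the signal at the 3′ end of that transcript minus the signal at its 5′ end and a measure of transcript completeness, was 3.16 on the second E13.5 male array and 3.09 on the second E13.5 female array, and at most 2.53 on the other arrays. In bulk RNA, fewer cells of a type and less RNA per cell cannot be told apart.

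Between E10.5 and E13.5 these genes moved mostly upwards, and with all arrays in the fit no member passed as lower on a later day. In E13.5 males Cdkn2b and Rb1 rose relative to E10.5, 2 of 9 members, where 12.7% of all genes passed and 7.52% passed as higher. In E13.5 females Cdkn2b, Cdkn2d, Cdkn1c, Cdkn2c and Rb1 rose relative to E10.5, 5 of 9 members, where 17.9% of all genes passed and 11.5% passed as higher. The median log2 difference over the 9 members was 0.62 in males and 1.46 in females, against 0.07 and 0.08 over all genes. Both comparisons use the same E10.5 arrays. Between males and females of E13.5 only Cdkn2d passed, as lower in males, 1 of 9 members where 10.2% of all genes passed and 5.99% passed as lower. At an unadjusted p under 0.05 in limma there were 4 of 9 (Cdkn1b, Cdkn1c, Cdkn2c and Cdkn2d), against 22.3% of all genes.

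**Figure D1:**
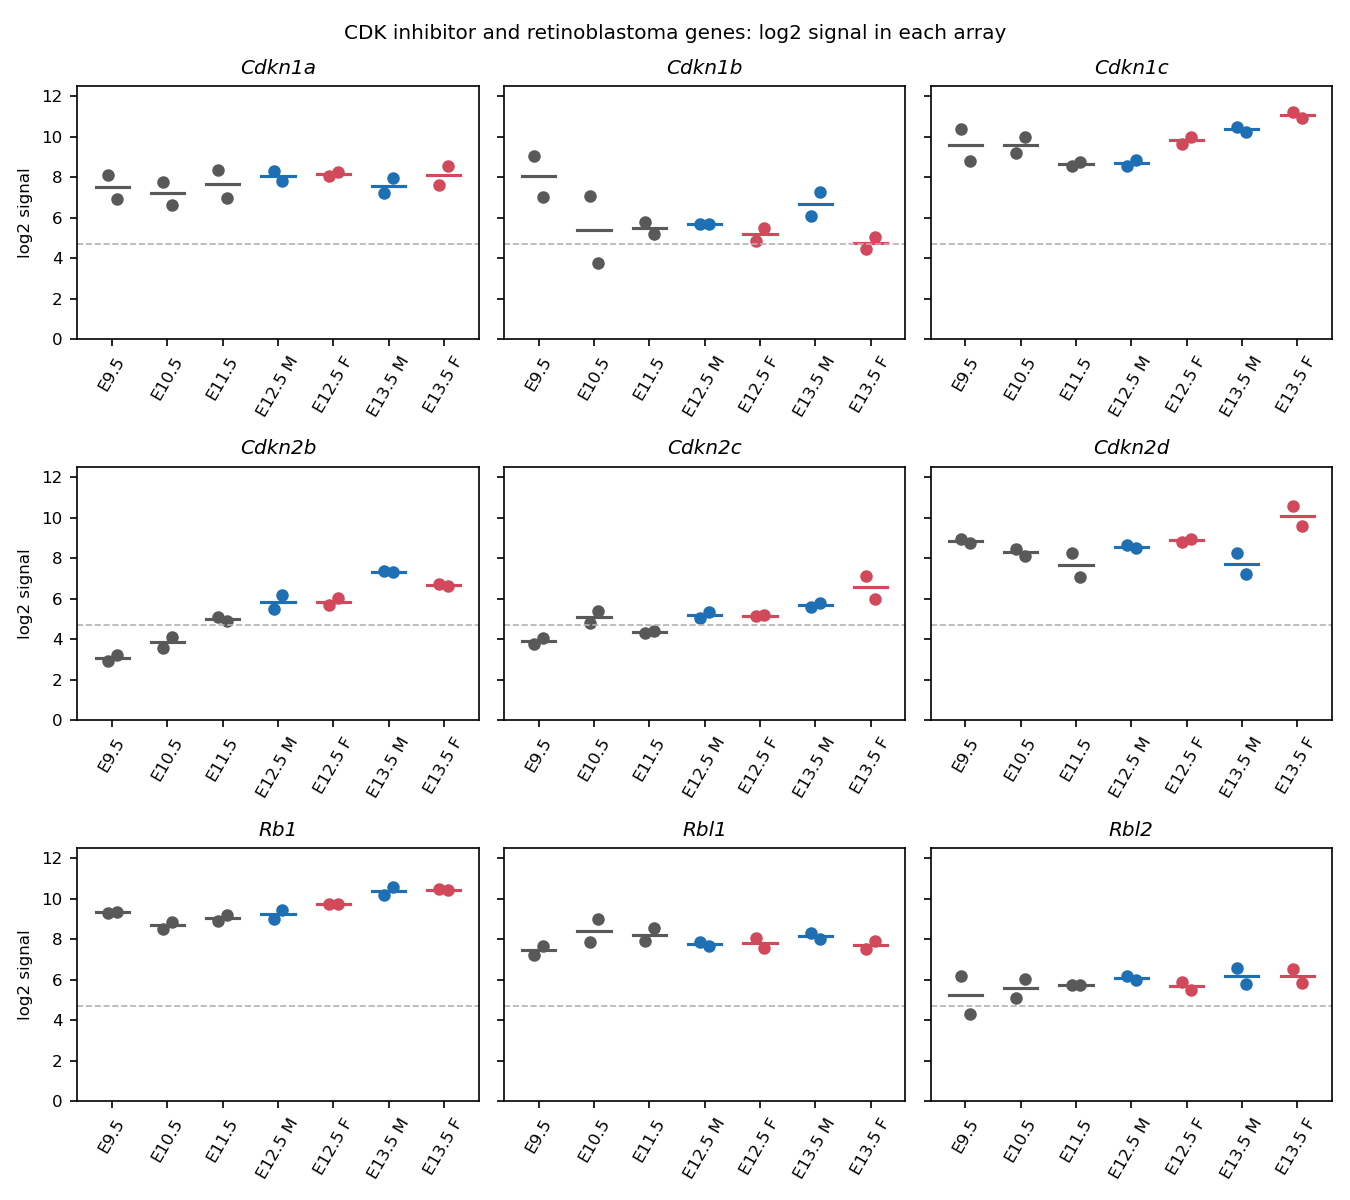
Deposited log2 signal of each of the 9 genes by group, with a point for each array, a bar at the mean of the 2 arrays and the dashed line at the table's median of 4.72. Cdkn2b climbs from dim at E9.5 to 7.34 in E13.5 males, and Cdkn2d separates E13.5 males from E13.5 females.

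Among the INK4 genes, Cdkn2b, which encodes p15-INK4b, had the largest rises from E10.5 to E13.5 of all 9 members. Its probe set read 2.93 and 3.21 at E9.5, 3.59 and 4.14 at E10.5, 5.11 and 4.91 at E11.5, 5.49 and 6.21 in males of E12.5, 5.67 and 6.04 in females of E12.5, 7.35 and 7.33 in males of E13.5, and 6.72 and 6.64 in females of E13.5. Each day lay above the one before without overlap, and only the sexes of E12.5 overlapped. Cdkn2b was dim at E9.5 and E10.5, so its folds against E10.5 are set against signals below the table's median.
Cdkn2b was 11.1-fold higher in E13.5 males than at E10.5 (log2 difference 3.48, SE 0.30, adjusted p = 4.94e-05) and 7.04-fold higher in E13.5 females than at E10.5 (2.81, SE 0.30, adjusted p = 0.000164). From E12.5 to E13.5 the male rise was 1.49 (SE 0.30, adjusted p = 0.0349), and the female difference of 0.82 did not pass (adjusted p = 0.217). The sexes of E13.5 differed by 0.66 on the male side (95% interval -0.01 to 1.33, adjusted p = 0.233). The male call between E12.5 and E13.5 was lost without any 1 of 3 arrays: without the first E12.5 male array the difference was 1.13 (adjusted p = 0.303), and without the first or the second E13.5 male array the adjusted p was 0.181 and 0.166.

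Cdkn2d, which encodes p19-INK4d, was the only member to pass between the sexes. It read 8.94 and 8.73 at E9.5, 8.47 and 8.11 at E10.5, 8.26 and 7.08 at E11.5, 8.65 and 8.50 in males of E12.5, 8.81 and 8.96 in females of E12.5, 8.24 and 7.23 in males of E13.5, and 10.57 and 9.57 in females of E13.5. Both E13.5 female arrays lay above all 12 others, and both E13.5 male arrays lay below every E12.5 array.
Cdkn2d averaged 7.74 ± 0.71 in males of E13.5 and 10.07 ± 0.71 in females of E13.5, a 5.05-fold lower signal in males (log2 difference -2.33, SE 0.45, adjusted p = 0.00763). Against E10.5, Cdkn2d was 3.43-fold higher in E13.5 females (1.78, SE 0.45, adjusted p = 0.0185) and differed by -0.56 in E13.5 males (adjusted p = 0.499).
The replicates of both E13.5 groups lay about 1 log2 unit apart, and the sex call was lost without either of 2 arrays. Without the first E13.5 female array, the one with Eif2s3y at 5.93, the difference was -1.83 (adjusted p = 0.0793), and without the second E13.5 male array, one of the pair with the high Gapdh distance, it was -1.83 (adjusted p = 0.0740). The female rise over E10.5 was likewise 1.28 (adjusted p = 0.160) without the first E13.5 female array and 1.60 (adjusted p = 0.0706) without the second E10.5 array. With the Gapdh distance as a covariate the sex difference passed (-2.21, adjusted p = 0.000319), and with both high-distance arrays left out it was -2.33 and did not (adjusted p = 0.0677).

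Cdkn2c, which encodes p18-INK4c, rose in females. It read 3.77 and 4.08 at E9.5, 4.79 and 5.42 at E10.5, 4.29 and 4.39 at E11.5, 5.06 and 5.34 in males of E12.5, 5.14 and 5.21 in females of E12.5, 5.58 and 5.81 in males of E13.5, and 7.13 and 6.01 in females of E13.5. The gene was dim at E9.5 and E11.5, the E13.5 females were the highest group, and the E13.5 males lay between them and E12.5 without overlap. Cdkn2c was 2.76-fold higher in E13.5 females than at E10.5 (log2 difference 1.47, SE 0.37, adjusted p = 0.0186), whereas the difference of 0.59 in E13.5 males did not pass (adjusted p = 0.366). Males of E13.5 were lower than females by a log2 difference of -0.88 that did not pass (95% interval -1.69 to -0.06, adjusted p = 0.187). The call was lost without either of 2 arrays: without the first E13.5 female array the difference from E10.5 was 0.91 (adjusted p = 0.153), and without the first E10.5 array it was 1.15 (adjusted p = 0.0927). Without the second E13.5 female array the difference between the sexes was -1.44 and passed (adjusted p = 0.0465).

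The promoters of the 3 INK4 genes are shown because each of these genes passed in at least 1 comparison, and that of Rbl1 because its window holds an E2F-type octamer. RefSeq's table for GRCm38.p6 gave 9 windows for 7 of the 9 genes, each from 250 bases before to 50 bases after an annotated start. It gave none for Cdkn1c and Rb1, which also passed in at least 1 comparison. Capitals mark matches, on either strand, to the E2F-type octamers TTTCCCGC, TTTGCCGC, TTTGGCGC and TTTCGCGC, to the GC box GGGCGG (the core bound by Sp1 family factors) and to TTTGAA, the cell cycle homology region through which MuvB complexes act on mitotic genes. The windows are Cdkn2b at chr4:89310983-89311282, Cdkn2c at chr4:109666707-109667006, Cdkn2d at chr9:21291160-21291459 and Rbl1 at chr2:157204485-157204784, all on the minus strand and written 5′ to 3′ in the direction of transcription.
Cdkn2b: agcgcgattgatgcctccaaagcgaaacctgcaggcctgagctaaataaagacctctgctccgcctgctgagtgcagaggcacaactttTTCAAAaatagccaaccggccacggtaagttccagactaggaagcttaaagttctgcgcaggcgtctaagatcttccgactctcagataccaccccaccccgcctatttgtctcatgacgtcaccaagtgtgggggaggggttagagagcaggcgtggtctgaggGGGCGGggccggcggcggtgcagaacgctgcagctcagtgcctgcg
Cdkn2c: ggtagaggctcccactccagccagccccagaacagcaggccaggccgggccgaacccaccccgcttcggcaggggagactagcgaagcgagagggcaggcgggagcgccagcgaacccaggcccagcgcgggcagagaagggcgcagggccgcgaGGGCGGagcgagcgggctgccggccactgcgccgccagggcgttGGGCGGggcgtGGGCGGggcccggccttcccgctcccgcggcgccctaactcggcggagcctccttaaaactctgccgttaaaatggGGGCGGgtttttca
Cdkn2d: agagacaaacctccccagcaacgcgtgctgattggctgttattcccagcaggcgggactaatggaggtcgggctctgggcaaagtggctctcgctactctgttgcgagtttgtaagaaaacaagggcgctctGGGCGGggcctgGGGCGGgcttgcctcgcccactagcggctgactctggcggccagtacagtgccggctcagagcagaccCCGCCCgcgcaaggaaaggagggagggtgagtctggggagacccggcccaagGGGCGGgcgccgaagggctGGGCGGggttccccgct
Rbl1: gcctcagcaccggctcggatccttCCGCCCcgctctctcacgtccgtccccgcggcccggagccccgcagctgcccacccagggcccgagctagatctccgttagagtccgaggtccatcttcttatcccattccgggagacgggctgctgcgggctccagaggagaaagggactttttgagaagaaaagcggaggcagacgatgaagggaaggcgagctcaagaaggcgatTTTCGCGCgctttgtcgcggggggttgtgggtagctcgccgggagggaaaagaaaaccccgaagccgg

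The INK4 windows differed in their makeup. Cdkn2d held 5 GC boxes in a window of 66.3% GC, and the printed window of Cdkn2c held 4 in 73.3% GC. A second annotated start of Cdkn2c, with the window chr4:109665323-109665622, had 44.0% GC and no match. Cdkn2b held 1 GC box, at position 5 from the start, in 57.7% GC with TTTGAA on the opposite strand at -161. The octamer of Rbl1 lay at -18. Over all 32851 windows of this length the median GC content was 52.7%, and the share with a match was 2.26% for the octamers, 35.7% for the GC box and 17.9% for TTTGAA. Of the 9 member windows, 1 held an octamer, 7 a GC box and 2 TTTGAA, with no overlap between matches. Whether any factor bound these letters in germ cells was not measured here.

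Among the Cip/Kip genes, Cdkn1c was the one that rose. The gene is imprinted and its protein p57 restrains growth in many embryonic tissues. Cdkn1c read 10.36 and 8.80 at E9.5, 9.19 and 9.98 at E10.5, 8.56 and 8.75 at E11.5, 8.57 and 8.87 in males of E12.5, 9.66 and 9.97 in females of E12.5, 10.46 and 10.25 in males of E13.5, and 11.24 and 10.92 in females of E13.5. E11.5 and E12.5 males formed its low point, and on both sexed days the male arrays lay below the female arrays without overlap.
From E12.5 to E13.5 Cdkn1c rose 3.11-fold in males (log2 difference 1.64, SE 0.27, adjusted p = 0.0134) and 2.40-fold in females (1.26, SE 0.27, adjusted p = 0.0443). Against E10.5 the difference was 0.77 in E13.5 males (adjusted p = 0.0912) and 1.5 in E13.5 females (SE 0.27, adjusted p = 0.00289). The lower male level did not pass on either day, with log2 differences of -0.72 at E13.5 (adjusted p = 0.126) and -1.09 at E12.5 (adjusted p = 0.0654). Each E12.5-to-E13.5 call was lost when single arrays were left out: in males without the first E12.5 array (1.49, adjusted p = 0.164) or either E13.5 array (adjusted p = 0.113 and 0.0881), and in females without any 1 of the 4 arrays (1.10 to 1.43, adjusted p from 0.102 to 0.297).

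Cdkn1b, which encodes p27, was the member with the largest difference on the male side at E13.5, but its arrays scattered. It read 9.06 and 7.02 at E9.5, 7.06 and 3.77 at E10.5, 5.77 and 5.22 at E11.5, 5.68 on both E12.5 male arrays, 4.86 and 5.50 in females of E12.5, 6.10 and 7.29 in males of E13.5, and 4.47 and 5.06 in females of E13.5. E13.5 males lay above E13.5 females and both E12.5 groups without overlap, while the E10.5 arrays lay further apart than any pair of arrays of the later days. The difference between E13.5 males and females was 1.93 (95% interval 0.11 to 3.75, adjusted p = 0.195), and that between E13.5 and E12.5 males was 1.01 (adjusted p = 0.650), so neither passed. The other probe set of Cdkn1b was dim, with a mean of 2.91, and gave 0.98 for E13.5 males against females (adjusted p = 0.472 over all probe sets).

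Cdkn1a, which encodes the p53-induced inhibitor p21, did not pass in any comparison. Its arrays read 8.09 and 6.92 at E9.5, 7.78 and 6.65 at E10.5, 8.34 and 6.97 at E11.5, 8.29 and 7.83 in males of E12.5, 8.06 and 8.25 in females of E12.5, 7.24 and 7.94 in males of E13.5, and 7.63 and 8.55 in females of E13.5. All neighbouring groups in the order of means overlapped, and E13.5 males differed from E13.5 females by -0.50 (95% interval -1.62 to 0.62), an interval that holds a 2-fold lower level in males. Its other probe set gave 0.56 for the same comparison, the opposite sign, and did not pass either.

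Of the retinoblastoma genes Rb1, which encodes the best known of these E2F repressors, rose, and the other two did not pass. Rb1 read 9.28 and 9.36 at E9.5, 8.52 and 8.86 at E10.5, 8.89 and 9.21 at E11.5, 9.02 and 9.44 in males of E12.5, 9.76 and 9.75 in females of E12.5, 10.17 and 10.56 in males of E13.5, and 10.48 and 10.42 in females of E13.5. All 4 E13.5 arrays lay above all 10 others, and males and females of that day overlapped. Rb1 was 3.19-fold higher in E13.5 males than at E10.5 (log2 difference 1.68, SE 0.22, adjusted p = 0.000681) and 3.39-fold higher in E13.5 females than at E10.5 (1.76, SE 0.22, adjusted p = 0.000420). Males and females of E13.5 differed by -0.09 (95% interval -0.58 to 0.41).
From E12.5 to E13.5 the male rise in Rb1 was 1.14 (SE 0.22, adjusted p = 0.0310), and the female difference of 0.69 did not pass (adjusted p = 0.154). Leaving out any 1 of the 4 male arrays of E12.5 and E13.5 lost that male call (0.93 to 1.34, adjusted p from 0.0583 to 0.286). With each gene's probe sets averaged the male rise over E12.5 was 0.67 (adjusted p = 0.134), and the differences from E10.5 were 1.04 in males and 1.05 in females and still passed. The second probe set of Rb1, with a mean signal of 5.69 and a correlation of 0.77 with the one used over 12 arrays, gave 0.40 for E13.5 males and 0.35 for E13.5 females against E10.5, and neither passed.

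Rbl1, which encodes p107, read 7.22 and 7.69 at E9.5, 7.86 and 8.99 at E10.5, 7.89 and 8.53 at E11.5, 7.86 and 7.69 in males of E12.5, 8.05 and 7.55 in females of E12.5, 8.31 and 8.0 in males of E13.5, and 7.50 and 7.89 in females of E13.5. E13.5 males lay above E13.5 females by 0.46 without overlap (95% interval -0.35 to 1.27), a difference that did not pass. Rbl2, which encodes p130, the pocket protein of quiescent cells, read 6.59 and 5.81 in males of E13.5 and 6.54 and 5.86 in females of E13.5, and all its arrays lay between 4.30 and 6.59. Their means were equal to 2 decimals at E13.5 (difference 0.00, 95% interval -0.84 to 0.84), an interval that reaches close to a 2-fold change on either side. The 4 probe sets of Rbl1 did not move together (correlations with the one used of 0.14, -0.36 and -0.18), and 2 of them were dim, as was the second probe set of Rbl2.

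**Figure D2:**
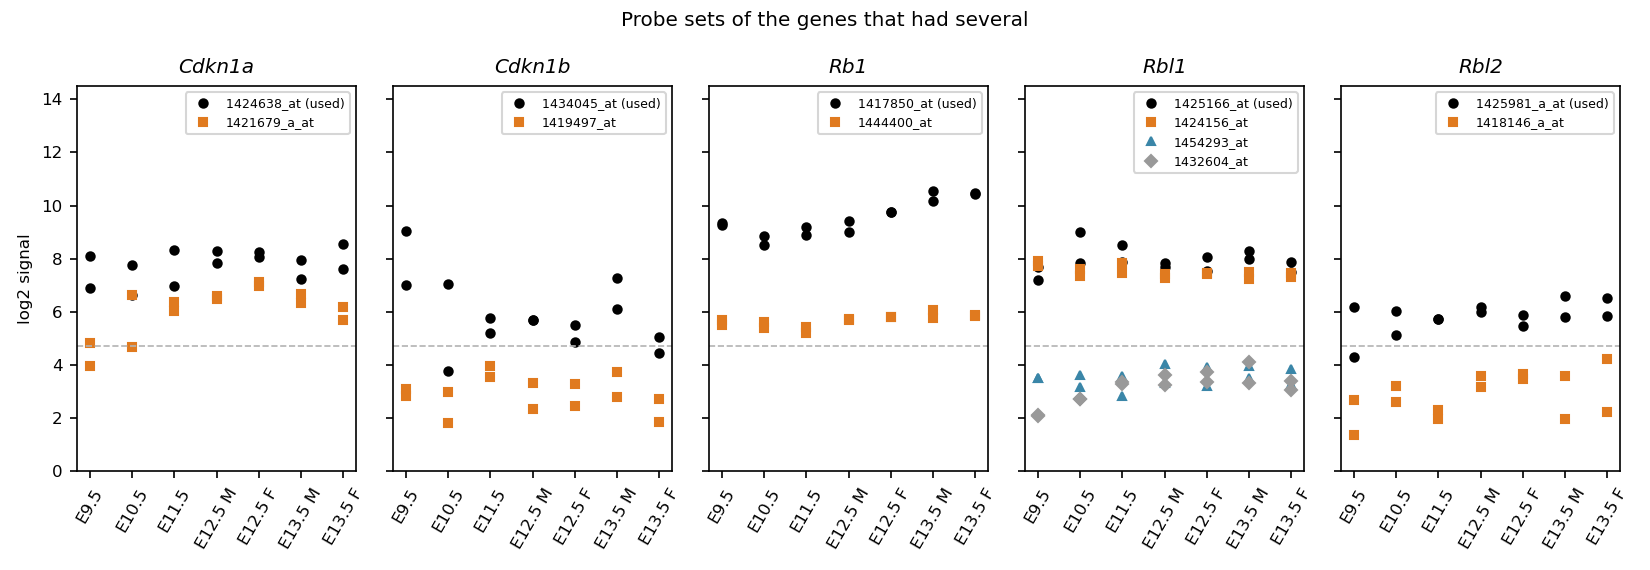
Log2 signal of every probe set of the 5 genes that have more than 1, by group, with a point for each array and the dashed line at the table's median of 4.72. The probe set used for Rb1 is highest at E13.5 in both sexes while the other one stays between 5.22 and 6.06, and 2 of the 4 probe sets of Rbl1 stay below the dashed line.

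The step from E12.5 to E13.5 covers the days on which the sexes take different cell cycle courses. In males 3 of 9 members rose (Cdkn1c, Cdkn2b and Rb1), where 2.09% of all genes passed and 1.36% passed as higher. In females 1 of 9 rose (Cdkn1c), where 1.87% of all genes passed and 1.31% passed as higher, and 5 of 9 had an unadjusted p under 0.05, against 15.0% of all genes. The median difference over the members was 0.50 in males and 0.70 in females, against 0.05 and 0.02 over all genes. The change of the male-female difference between the days passed for no member in limma (0 of 9, 0.011% of all genes), and 1 of 9, Cdkn2d, had an unadjusted p under 0.05, against 7.42% of all genes. A male call beside a missing female call is therefore not shown to be a difference between the sexes.

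**Figure D3:**
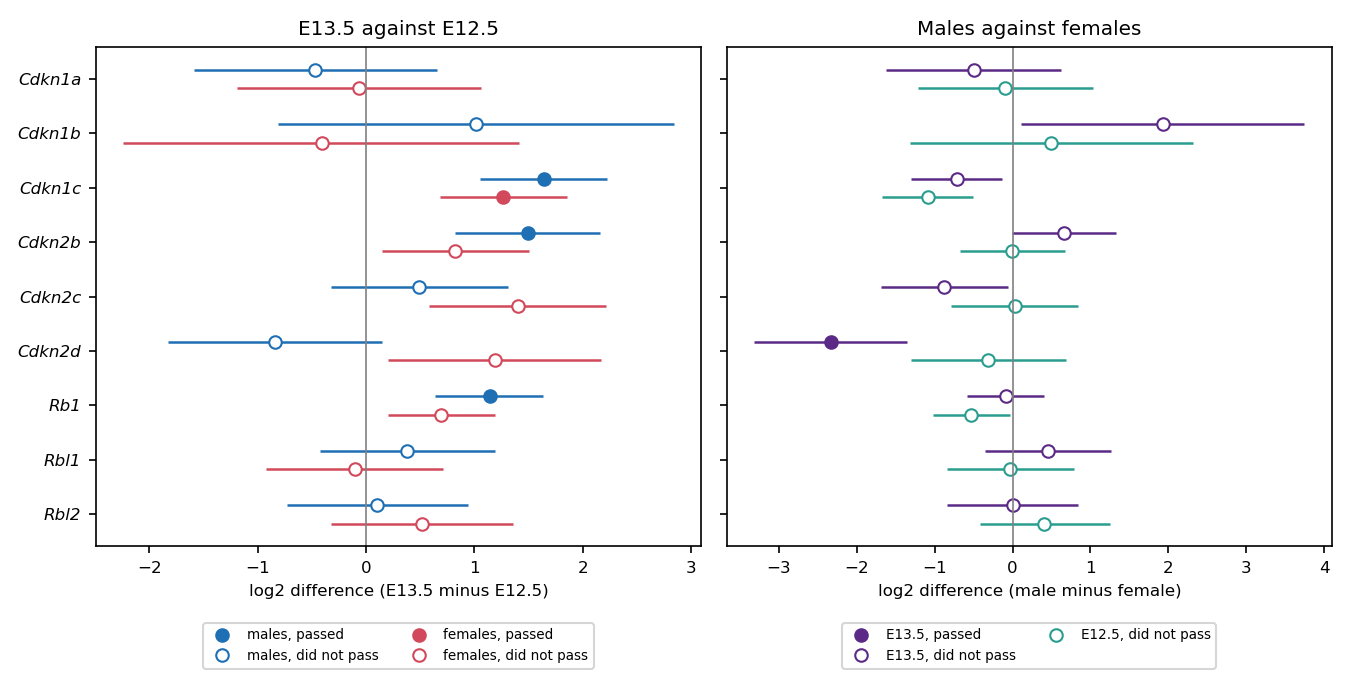
Log2 differences of the 9 genes with 95% intervals, for E13.5 against E12.5 in each sex (left) and for males against females on each day (right), with filled points for an adjusted p under 0.05. Cdkn2d alone passes between males and females, at -2.33 on E13.5, and Cdkn1c passes against E12.5 in both sexes.

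Up to E12.5 no member passed between consecutive days or between the sexes. Between E11.5 and E10.5 limma called 0 of 9, where 0.077% of all genes passed, and 2 of 9 had an unadjusted p under 0.05, against 7.07% of all genes. From E11.5 to E12.5 it called 0 of 9 in males, where 1.01% of all genes passed (2 at an unadjusted p under 0.05, against 9.37%), and 0 of 9 in females, where 1.86% passed (5 at an unadjusted p under 0.05, against 13.4%). Between males and females of E12.5 it called 0 of 9, where 2.39% of all genes passed (2 at an unadjusted p under 0.05, Cdkn1c and Rb1, against 12.8%).
Between E10.5 and E9.5, in a fit over all 14 arrays, limma called 0 of 9, where 1.06% of all genes passed, and 5 of 9 had an unadjusted p under 0.05, against 16.1%. Without the first E10.5 array the differences in the same comparison were -4.27 for Cdkn1b, 1.5 for Cdkn2c and 1.53 for Rbl1. With all arrays the differences were -2.62 for Cdkn1b, 1.18 for Cdkn2c and 0.97 for Rbl1. The summed linear signal of 10 blood cell markers was lower at the later of these days, with 3471 and 2671 at E10.5, against 24712 and 13214 at E9.5. Their part in the members' values was not tested.

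Markers of other cells of the embryo moved between the groups. The summed linear signal of 23 gonadal somatic markers was 1728 and 1627 in males of E13.5, 1155 and 1254 in females of E13.5, 1054 and 1274 in males of E12.5, 1159 and 1375 in females of E12.5, and 2095 and 1516 at E10.5. The 12 germ cell markers summed to between 40204 and 54667 on all arrays. Sox9, which defines Sertoli cells, was dim on all 14 arrays, between 2.05 and 4.23, whereas Cst9, another Sertoli cell gene, averaged 8.77 ± 0.47 in males of E13.5 and 2.34 ± 1.68 in females of E13.5. Of the 23 markers, 3 were higher and 3 lower in E13.5 males than in E13.5 females, where 10.2% of all genes passed. Among them were Cst9, Ptgds (log2 difference 3.41), Irx3 (-4.11) and Nr2f1 (-2.98). In E13.5 males 2 were higher than in E12.5 males (Cyp17a1 by 2.37 and Col3a1 by 1.61) and none lower, where 2.09% of all genes passed. The members Cdkn1c, Cdkn2b and Rb1 rose over the same step. The 10 endothelial markers summed to 721 and 841 in males of E13.5 and to 520 and 566 in females of that day. At E10.5 they summed to 1307 and 986. Relative to E10.5, 4 of 10 were lower in males of E13.5, where 12.7% of all genes passed (951 of 18193 as lower). For females of that day it was 6 of 10, where 17.9% of all genes passed (1163 of 18193 as lower). The 10 blood cell markers summed to 176 and 577 in males of E13.5 and to 217 and 471 in females of that day. At E10.5 they summed to 3471 and 2671. In each sex 2 of 10 blood cell markers were lower at E13.5 than at E10.5, beside the same shares of all genes. Cdkn2b and Rb1 rose over that interval. The part of these cells in the members' values was not tested.

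Some of the kinases and cyclins that the inhibitors act on differed between the sexes at E13.5. Of 12 G1 cyclins and kinases, 2 were higher and 2 lower in males, where 10.2% of all genes passed. Their median was -0.12 against -0.02 over all genes. Ccnd1, the D-type cyclin that INK4 proteins compete with for CDK4 and CDK6, averaged 7.21 ± 0.00 in males of E13.5 and 10.07 ± 0.40 in females of E13.5, a log2 difference of -2.87 (SE 0.38, adjusted p = 0.000959). Ccne1, the cyclin partner of CDK2, was lower in males (log2 difference -0.80, adjusted p = 0.0260). Cdk6 was higher in males by 1.66 (adjusted p = 0.0288) and Cdk4 by 0.95 (adjusted p = 0.0165). These are the kinases that INK4 proteins bind.
Against E10.5, 0 of the 12 rose and 2 fell in E13.5 males (log2 differences of -1.34 for Ccnd3 and -1.25 for Ccne1), where 12.7% of all genes passed. In E13.5 females 1 rose and 2 fell (2.62 for Ccnd1, -1.20 for Ccnd3 and -1.22 for Cdk4), where 17.9% of all genes passed. Ccnd1 also rose from E12.5 to E13.5 in females, by 1.83 (adjusted p = 0.0438), and was lower in E12.5 males than in E12.5 females (log2 difference -2.23, adjusted p = 0.0147).

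A list for the turnover of the inhibitors held 11 genes, 10 of them measured, and not all of them target the inhibitors themselves. Skp2, the F-box protein that targets p27, averaged 10.25 ± 0.14 in males of E13.5 and 8.91 ± 0.11 in females of E13.5, a log2 difference of 1.34 (SE 0.27, adjusted p = 0.00954). It was the only 1 of the 10 to pass between the sexes at E13.5, where 10.2% of all genes passed. The list's median was 0.34 against -0.02 over all genes. Relative to E10.5 Skp2 fell by 1.25 in E13.5 males (adjusted p = 0.0111) and fell by 2.60 in E13.5 females (adjusted p = 0.000129). Fbxw7, the F-box protein that targets cyclin E, rose in both, by 1.70 in males and 1.21 in females. In all 2 of the 10 rose and 1 fell in males, where 12.7% of all genes passed. In females 2 rose and 2 fell, where 17.9% of all genes passed.

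Partners and targets of the retinoblastoma proteins were read beside the 12.7% of all genes that passed in E13.5 males and the 17.9% that passed in E13.5 females relative to E10.5. Of 16 genes for E2F, DP and MuvB partners, 0 rose and 3 fell in E13.5 males relative to E10.5 (log2 differences of -1.53 for E2f2, -0.97 for E2f8 and -0.93 for Mybl2). In E13.5 females 1 rose and 2 fell (0.62 for Tfdp2, -1.28 for Mybl2 and -0.89 for E2f8), and between the sexes of E13.5 none of 16 passed in limma (3 at an unadjusted p under 0.05, against 22.3% of all genes).
Of 19 measured S phase genes under E2F control, 0 rose and 3 fell in E13.5 males relative to E10.5 (-1.80 for Rrm2, -0.70 for Tk1 and -0.59 for Cdt1), and 0 of 19 passed in E13.5 females in limma (2 at an unadjusted p under 0.05, against 29.0% of all genes). Tk1, thymidine kinase, was lower in E13.5 males than in E13.5 females (log2 difference -0.68). It was the 1 gene of 19 to pass between the sexes, where 10.2% of all genes passed. Of 17 measured G2 and mitosis genes, 1 rose and 0 fell in E13.5 males relative to E10.5 (0.76 for Cenpf, a kinetochore protein), and 2 rose and 3 fell in E13.5 females (among them 0.71 for Ttk, -1.25 for Aurkb, -0.74 for Aurka and -0.73 for Bub1b). Aurkb, a mitotic kinase, and Bub1b, a spindle checkpoint kinase, were higher in E13.5 males than in E13.5 females, by 0.77 and 0.71. They were the 2 of 17 to pass, where 10.2% of all genes passed. Among 10 measured genes of the p53 response, which includes the control of Cdkn1a, 1 rose in E13.5 males relative to E10.5 (Trp53inp1 by 0.94), where 7.52% of all genes passed as higher, and 3 rose in E13.5 females (Sesn1 by 1.21, Trp53inp1 by 0.86 and Phlda3 by 0.73), where 11.5% did.

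**Figure D4:**
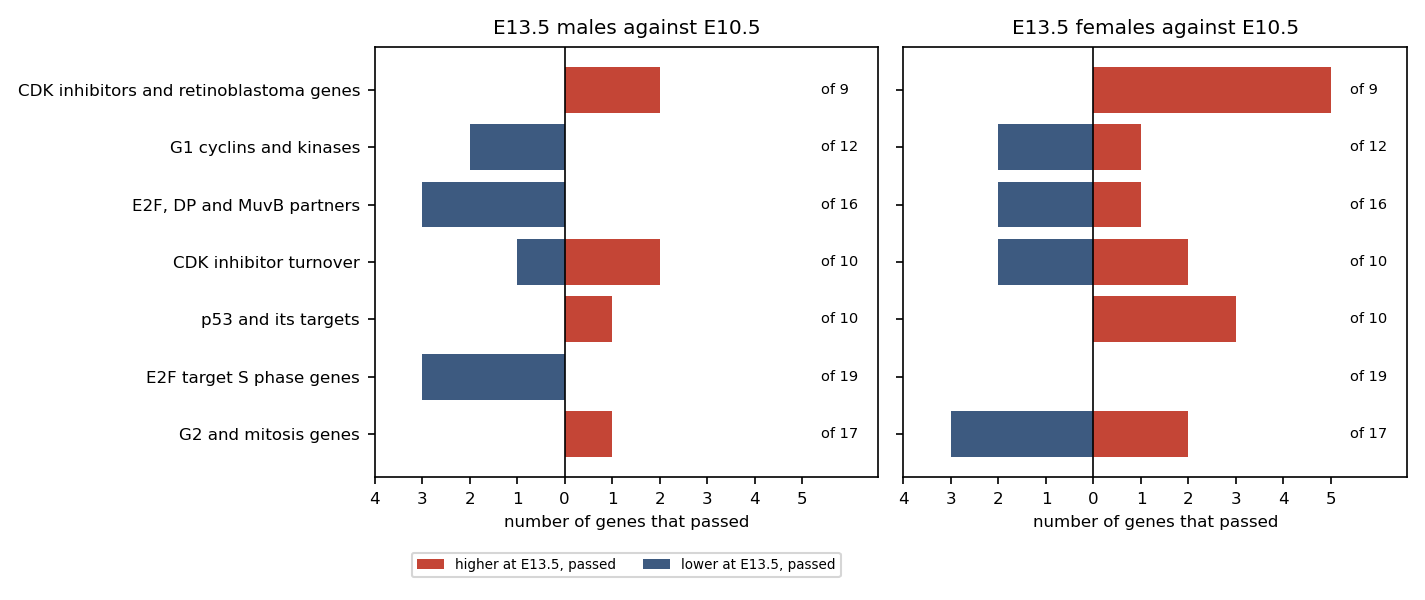
Number of measured genes in each cell cycle list that passed as higher (right of 0) or lower (left of 0) in E13.5 males (left panel) and E13.5 females (right panel) against E10.5, with the number measured at the right. The 9 CDK inhibitor and retinoblastoma genes show 2 and 5 higher and none lower, and the other lists hold up to 3 calls in either direction.

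The meiotic entry genes, the background against which the female course is read, separated the sexes. Of 20 meiotic entry genes, 14 were lower in E13.5 males than in E13.5 females, with a median of -1.54, where 5.99% of all genes passed as lower. Some of them rose in males too. Relative to E10.5, 13 of 20 rose in E13.5 males and 18 of 20 in E13.5 females, where 7.52% and 11.5% of all genes passed as higher. Their medians were 1.25 and 3.68, against 0.07 and 0.08 over all genes. Stra8, the retinoic acid target that starts meiosis, averaged 5.80 ± 0.57 in males of E13.5 and 12.62 ± 0.38 in females of E13.5 (log2 difference -6.83, SE 0.67, adjusted p = 0.000170). Of 10 measured male germ cell genes 1 was higher in E13.5 males than in E13.5 females (Tdrd5, by 1.39), and none was lower, where 10.2% of all genes passed.

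Among the neighbours of Cdkn1c in its imprinted domain, a pair differed between the sexes. Phlda2, an imprinted gene known in the placenta for restraining growth, averaged 6.37 ± 0.28 in males of E13.5 and 12.77 ± 0.07 in females of E13.5 (log2 difference -6.40, SE 0.27, adjusted p = 1.45e-06). Slc22a18, which encodes a membrane transporter, was also lower in E13.5 males than in E13.5 females (log2 difference -3.04). Of the 9 neighbours measured only these 2 passed between the sexes of E13.5, where 10.2% of all genes passed. Both also passed as lower in males at E12.5 (-5.07 for Phlda2 and -3.0 for Slc22a18), where 2.39% of all genes passed.

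The genes most like each called member were found by Pearson correlation of log2 signal over the 12 arrays of E10.5 and later, among 13287 genes, and are given as a description, since all genes of an array share its RNA. Rb1 went most closely with Kctd21 (r = 0.978), Rfx7 (0.978) and Zfp729b (0.977). Cdkn2b went with Tnrc6a (0.976), Glb1 (0.971) and Map3k5 (0.971), and Cdkn1c with Smo, the Hedgehog signal transducer (0.969), Nek9 (0.964) and Bmp2k (0.961). Cdkn2d went with Wbp2nl (0.965), Rab28 (0.954) and Elovl2 (0.946), and Cdkn2c with Ccdc92 (0.963), Phf8 (0.939) and Pxdn (0.935). No gene was among the closest 3 of more than 1 member.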

How the data were processed

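The authors deposited 1 processed log2 signal per probe set and array for 45101 probe sets, with all 14 arrays normalized together per the series' design text. How background was corrected and probes were summarized, and with which software, is not given in the sources used here, and the log2 scale was read from the values, which ran from 0.00 to 14.04. Array signals carry no read depth, so the number of arrays and the distance from background limit the precision. Platform annotation gave 34945 probe sets a single symbol, 932 several and 9224 none. Of the single-symbol probe sets 34741 matched RefSeq by Entrez identifier. The probe set with the highest mean stood for each gene.

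Linear models were run in limma 3.58.1 (R 4.3.3; lmFit, then eBayes with a trend, two-sided) over the 12 arrays of E10.5 and later with 6 residual degrees of freedom, and over all 14 for E10.5 against E9.5. The model script was tested on simulated data, for E13.5 against E12.5 males with 100 changed genes of each size. The changed genes were drawn from those above the median gene, and the noise was normal and independent between genes. The script recovered 33% of the 2-fold and 87% of the 4-fold changes, so many 2-fold changes would not pass. These rates do not cover genes below the median gene, Cdkn2b among them. P-values were adjusted by Benjamini-Hochberg over 18193 genes, with 0.05 as the threshold. All comparisons share arrays with others. Replicates held no duplicated arrays, the most alike pair sharing 1.79% identical values.

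Alternatives were quantile normalization, leaving out genes below the median gene, other handling of probe sets, fits on the compared arrays alone, a replicate block, the Gapdh 3′ to 5′ distance as a covariate and leaving out each array in turn. Named genes were the 9 members, up to 4 passing genes of largest change per list and comparison, and the 3 genes most like each called member among genes with a group mean above the table's median. Dppa3, Eif2s3y and Sox9 were named outside this rule, for the sorting reporter, the sex of the samples and Sertoli cells. The members and the 13 other lists, with 189 entries of which 11 were not measured, were chosen with earlier results of these data known.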

Additional observations from a re-analysis of the deposited data

Results flagged for a closer look

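The mean signal of Cdkn2d moved in opposite directions in the sexes between E12.5 and E13.5. Every E13.5 male array lay below every E12.5 male array, and every E13.5 female array lay above every E12.5 female array. The log2 difference between E13.5 and E12.5 was -0.84 in males (SE 0.45, adjusted p = 0.442) and 1.19 in females (SE 0.45, adjusted p = 0.228), and neither passed by itself in limma. The change of the male-female difference between the days was -2.02 (SE 0.63, 95% interval -3.42 to -0.63, unadjusted p = 0.00871). It did not pass over all genes (adjusted p = 0.408), in a test that called 2 of 18193 genes. The second arrays of E11.5, E13.5 males and E13.5 females had the highest Gapdh distances (2.53, 3.16 and 3.09). On these arrays Cdkn2d read 7.08, 7.23 and 9.57, against 8.26, 8.24 and 10.57 on their replicates. Groups of 2 arrays are too small for a check of single outlying arrays within a group.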

How the results depend on the processing

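Log2 differences were recomputed for 37 results with an unadjusted p under 0.05 in limma, 12 of which were calls. Of 416 recomputed values, 368 kept their direction and side of the threshold, 40 lost the call, 8 gained one and none reversed. All 40 losses fell on the 12 calls, since a result that did not pass has no call to lose. Of the 12 calls, 4 held under every alternative that gave a value: Cdkn2b and Rb1 at E13.5 against E10.5 in both sexes, with adjusted p up to 0.0163 and 0.0485 in males and 0.0201 and 0.0291 in females. Cdkn2b and the other genes below the median gene had no value under that filter. Where every probe set was fitted separately, only the probe set already used was followed for each gene. The second probe set of Rb1 did not pass against E10.5 in either sex. The number of members called in E13.5 against E12.5 males, 3 with all arrays, was 1 under quantile normalization, 1 with the compared arrays alone, 0 with the Gapdh covariate and 0 to 2 when single arrays were left out. In E13.5 against E12.5 females, 1 with all arrays, it was 0 under quantile normalization, 0 with every probe set fitted separately and 0 to 0 without single arrays; with the Gapdh covariate the 1 call was Cdkn2d (1.81, adjusted p = 0.0205) and not Cdkn1c. Between the sexes of E13.5 the count of 1 ranged from 0 to 2 without single arrays. Leaving out both E13.5 arrays with a Gapdh distance above 3, chosen after seeing the data, gave 0 in these 3 comparisons. Between the sexes of E12.5 the compared arrays alone gave 1 in place of 0 (Cdkn1c, adjusted p = 0.0321). The filter on dim genes gave 1 for E12.5 females against E11.5 (Cdkn1c, adjusted p = 0.0474), 1 for E13.5 males against E10.5 and 3 for E13.5 females against E10.5, since it removes members. For E13.5 females against E10.5, 5 with all arrays, the compared arrays alone gave 2 and leaving out single arrays 3 to 5. For E13.5 males against E10.5 and for E10.5 against E9.5 the count also varied when single arrays were left out. In E13.5 males against E10.5 the Cdkn1c difference was 1.17 without the second E10.5 array. The other causes were not tested. Over all genes, calls in E13.5 against E12.5 males numbered 97 with the Gapdh covariate and 13 with both arrays left out, against 381, and in females 140 and 15, against 341.

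The labels do not say that replicate numbers mark a shared litter, batch or day, and the numbers were not treated as pairs, since not every pair of groups deviated together. Over 15 pairs of groups the correlation of the differences between replicates ran from -0.49 to 0.69 (median 0.04), and was over 0.1 in 7. With the replicate block the number of members called was the same in all 11 comparisons, 3 in E13.5 against E12.5 males and 5 in E13.5 females against E10.5 among them, and the sex difference of Cdkn2d at E13.5 was -2.33 (adjusted p = 0.00217). With 2 arrays a group, signals near the table's median and differences within the intervals given could not be resolved.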

Other observations

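Ascl2, a neighbour of Cdkn1c in the imprinted domain that encodes a basic helix-loop-helix factor known from trophoblast, was higher at E13.5 than at E10.5 in males by 4.98 and in females by 4.0, with levels of 9.18 ± 0.03 in E13.5 males, 8.20 ± 0.11 in E13.5 females and 4.20 ± 0.35 at E10.5 (limma adjusted p = 0.000141 and 0.000452). Phlda2 differed between the sexes on the first day on which they were separated, by -5.07 in males relative to females (limma adjusted p = 2.89e-05). It averaged 8.04 ± 0.09 in males of E12.5 and 13.10 ± 0.03 in females of E12.5, against 11.64 ± 0.15 at E11.5, a log2 difference from E11.5 of -3.61 in males (limma adjusted p = 0.00106) and 1.46 in females (limma adjusted p = 0.0256). Among the germ cell markers Tfap2c, which encodes a transcription factor of early germ cells, averaged 9.40 ± 0.32 in males of E13.5 and 10.56 ± 0.13 in females of E13.5, against 11.82 ± 0.09 at E10.5.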
